A study of Mus musculus with 6 samples.

Results

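The genes examined here are 54 cell cycle and mitosis genes, namely the cyclins and cyclin-dependent kinases (CDKs) that drive division, the E2F and RB proteins, and genes of DNA replication and mitosis, in the liver of mice with and without Dnajb4. Dnajb4 encodes HLJ1, a heat shock protein of the DNAJ family. A gene counted as measured when at least 1 probe set of the array carried its symbol and no other symbol, and its log2 signals were averaged over those probe sets. By this rule 53 of the 54 genes were measured, among 18193 genes in all, while Ccnb1 was not analysed here. By phase, 18 of the 53 act mainly in G1, 14 in S phase and 21 in G2 and mitosis (G2/M, 22 listed). Total liver RNA of 3 Dnajb4+/+ (wild-type) and 3 Dnajb4-/- mice was hybridised to an Affymetrix mouse expression array, with each array labelled as an independent mouse. Both groups were C57BL/6, were labelled male, were aged 6 to 8 weeks and received no treatment. The knockout was made by gene targeting in embryonic stem cells, and RNA was extracted from homogenized liver tissue.

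A cell that leaves rest first makes D-type cyclins, which with CDK4 and CDK6 phosphorylate the RB family and so release the E2F transcription factors. E2F then drives cyclin E and the replication genes, the MCM helicase is loaded on origins by CDC6 and CDT1, and DNA is copied around the PCNA clamp. Genes of G2 and mitosis are switched on later, largely through CHR elements and NF-Y boxes in their promoters, and in resting cells the DREAM complex holds many of them off. Most hepatocytes of an adult liver are at rest, although growth is still under way in young mice, and non-parenchymal cells such as macrophages and endothelial cells divide as well.

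Several features of the whole series bear on every result below. The arrays labelled male and Dnajb4+/+ gave Xist, the RNA of the inactive X chromosome, at 401.9, 363.7 and 388.5, whereas the Dnajb4-/- arrays gave 17.15, 16.99 and 14.33. The Y-linked gene Eif2s3y was present in both groups, at 62.60 to 72.33 and 77.41 to 81.35. As this holds for all 3 Dnajb4+/+ arrays, no control group remains without them, and genotype and this difference in Xist cannot be told apart. Of 12 listed liver genes known to be higher in females, 9 were measured and all 9 were lower in Dnajb4-/-. Their summed signals were 7125 to 7518 against 224 to 238, so that these sex-dependent genes differed between the groups as well. The log2 differences ran from -0.22 for Cux2 to -7.02 for Sult3a1, with a median of -3.67. This list was chosen with earlier results of these data known, and genes higher in males were not examined here. Dnajb4 itself was read at 131.7, 142.5 and 135.3 in Dnajb4+/+ and at 116.5, 125.4 and 130.0 in Dnajb4-/- liver (log2 difference -0.14, limma adjusted p = 0.145), and since it is not known here whether its probe sets lie in the deleted part, this checks nothing. The ratio of the 3' to the 5' control probe sets, a measure of RNA integrity, was 1.16 to 1.19 against 1.43 to 1.48 for Gapdh and 2.59 to 2.68 against 3.10 to 3.22 for Actb. Of 17 clock genes, 11 were lower and 5 higher in Dnajb4-/-. The hepatocyte markers expected of liver were present in both groups, with Alb at 29388 and 28776 and Ttr at 21751 and 22013 (means of Dnajb4+/+ and Dnajb4-/-). Of 8 such markers, Tat (-0.42, adjusted p = 9.95e-04) and Asgr1 (-0.23, adjusted p = 0.00752) were lower in Dnajb4-/- and the other 6 did not pass the test.

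Dnajb4-/- livers gave lower signals for 14 of the 53 genes (26.4%), at all 3 phases, while none was called higher. Across all genes 9.57% were called lower and 5.09% higher, at a Benjamini-Hochberg adjusted p under 0.05 by limma. Centring the arrays on their brighter probe sets moved these shares to 8.03% and 7.59% and the genes listed here to 13 lower and 1 higher. The lower genes were 5 of 18 in G1 (27.8%), 4 of 14 in S phase (28.6%) and 5 of 21 in G2/M (23.8%). At an unadjusted p under 0.05, 20 were lower and 3 higher by limma, while the methods' t-test gave 20 lower and 2 higher before adjustment and 8 lower and 0 higher after it. By the same test 7.38% of all genes were lower after adjustment. Shares of all genes before adjustment were not computed, so the unadjusted counts have no background beside them. Leaving out 1 array at a time kept between 8 and 12 lower calls, while 5.69% to 7.43% of all genes were lower. The count was 8 without Dnajb4+/+ replicate 3 and 9 without Dnajb4-/- replicate 1, and no gene became a higher call in any of these 6 fits. As homogenized liver tissue was measured, fewer dividing cells and less of an RNA per cell cannot be told apart.

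The remaining 39 genes did not pass the test. Their log2 differences (Dnajb4-/- minus Dnajb4+/+) ran from -0.26 to 0.16, with 24 below and 15 above 0. Over all 53 genes the median difference was -0.07, against 0.01 over all genes on the array. Medians by phase were -0.03 in G1, -0.08 in S phase and -0.08 in G2/M. In 21 of the 53 genes (39.6%) every Dnajb4-/- array lay below every Dnajb4+/+ array, a pattern found in 19.4% of all genes. The opposite order was seen in 6 of the 53, against 16.1% of all genes, and the groups overlapped in the other 26.

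**Figure D1:**
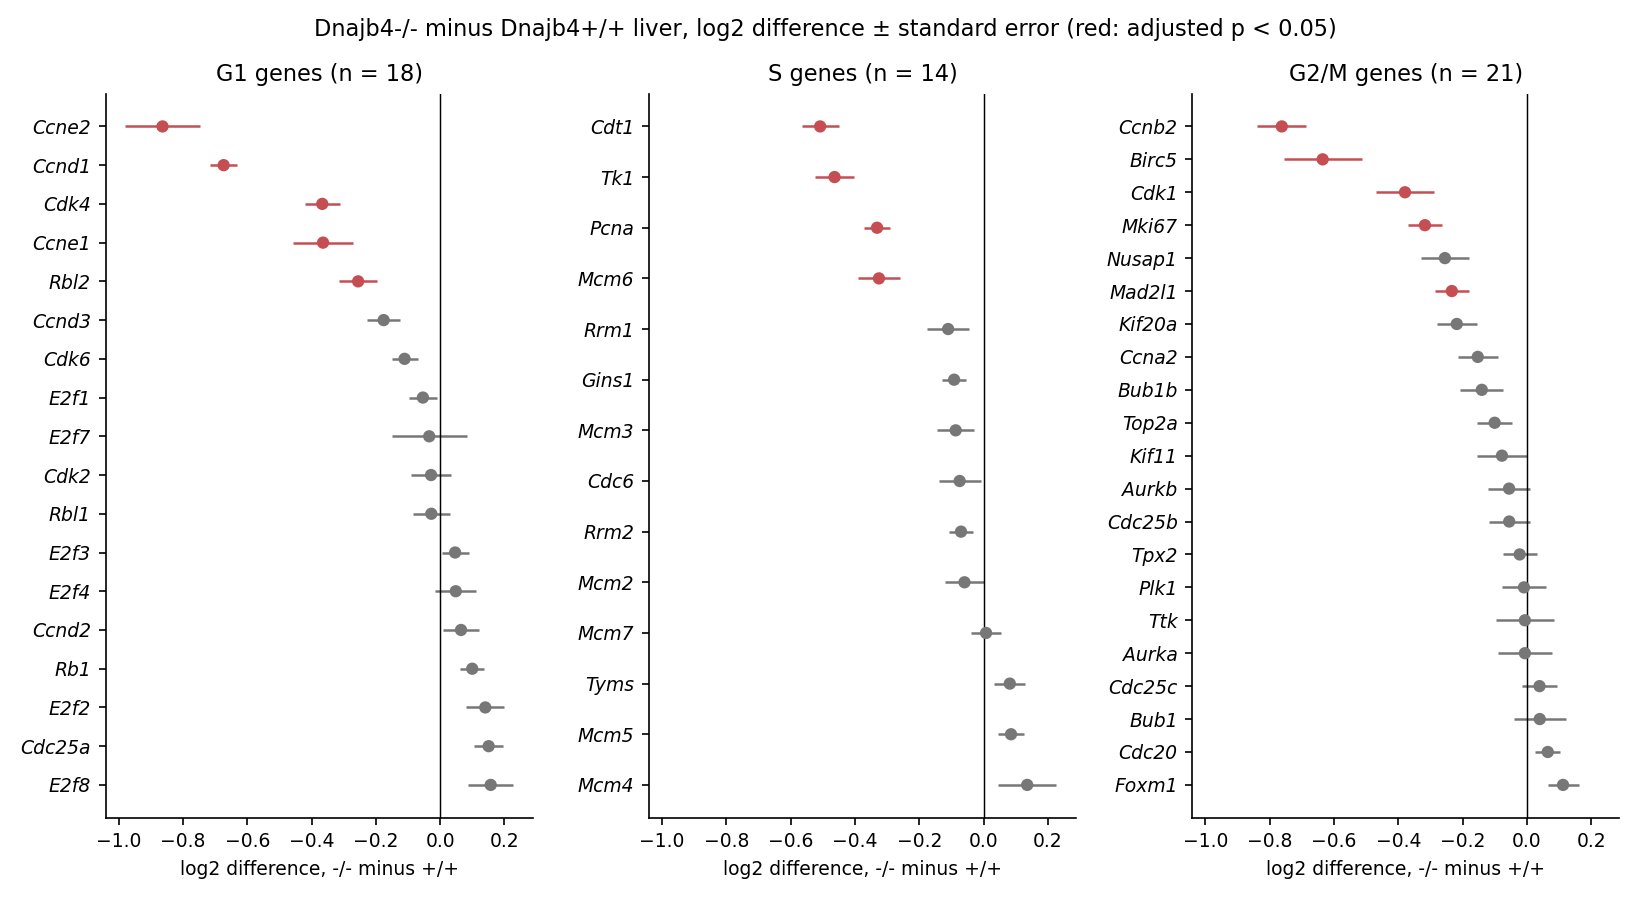
Log2 difference in signal, Dnajb4-/- minus Dnajb4+/+ liver (x axis, points, with bars for the standard error of the limma fit, n = 3 arrays per genotype), for the 18 G1, 14 S and 21 G2/M genes (y axis), with genes called at an adjusted p under 0.05 in red. All 14 red points lie left of 0, and the grey points of the uncalled genes lie between -0.26 and 0.16.

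Of the 18 G1 genes, the 5 lower ones were 1 of the 3 D-type cyclins (Ccnd1), both E-type cyclins (Ccne1 and Ccne2), Cdk4 and Rbl2. Ccnd1, the D-type cyclin that couples growth signals to cell cycle entry in hepatocytes, gave 295.8, 291.3 and 299.2 in Dnajb4+/+ and 177.7, 186.3 and 192.0 in Dnajb4-/- liver, which is 62.7% of the wild-type level (log2 difference -0.67 ± 0.043 SE, adjusted p = 1.58e-04). The arrays of each genotype lay close together and the groups were far apart. Its partner kinase Cdk4 gave 182.4, 173.5 and 184.4 against 130.5, 146.6 and 142.4 (-0.37 ± 0.055, adjusted p = 0.00594), again with no overlap. Ccne2, an E-type cyclin that activates CDK2 at the entry to S phase, gave 30.18, 25.02 and 34.10 against 17.87, 15.69 and 15.25 (-0.86 ± 0.12, adjusted p = 0.00386). This was the largest log2 difference of the 53 genes, with all Dnajb4-/- arrays below the lowest wild-type array. The other E-type cyclin, Ccne1, gave 65.60, 70.51 and 63.07 against 55.10, 44.59 and 55.69 (-0.36 ± 0.093, adjusted p = 0.0431), with 1 Dnajb4-/- array lower than the other two. Rbl2, which encodes the RB relative p130 of the DREAM complex in resting cells, gave 268.1, 247.7 and 267.8 against 205.2, 231.7 and 220.1 (-0.26 ± 0.059, adjusted p = 0.0305). The gap between the groups was narrow for Rbl2, between 231.7 and 247.7.

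The other 13 G1 genes were not called. Of the remaining D-type cyclins, Ccnd3 gave 56.90, 59.54 and 63.38 against 51.58, 52.94 and 54.57 (-0.18, adjusted p = 0.065), so that its groups were apart although it missed the threshold. Ccnd2 gave 65.47, 62.72 and 70.40 against 67.85, 67.62 and 72.11 (0.06, adjusted p = 0.486), with overlapping groups. Cdk6, the second kinase of the D-type cyclins, gave 151.2, 144.1 and 148.8 against 138.2, 133.4 and 139.8 (-0.11, adjusted p = 0.121), also without overlap. E2f4, an E2F that acts mostly as a repressor in resting cells, overlapped between the groups (0.05, adjusted p = 0.662). None of the 6 E2F genes and neither Rb1 nor Rbl1 was called by the gene average.

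In S phase the 4 lower genes were parts of origin licensing, the replication clamp and nucleotide salvage. Cdt1, which loads the MCM helicase on origins, gave 55.29, 55.32 and 60.67 in Dnajb4+/+ and 37.94, 41.86 and 40.61 in Dnajb4-/- liver, or 70.3% of the wild-type level (-0.51 ± 0.057, adjusted p = 0.00179). Tk1, the thymidine kinase that supplies dTTP in dividing cells, gave 232.9, 222.4 and 237.6 against 154.6, 172.7 and 175.9 (-0.46 ± 0.060, adjusted p = 0.00312). Both genes showed a gap between the groups wider than the range within either. Pcna, the sliding clamp of the DNA polymerases, gave 1161, 1093 and 1149 against 913.5, 883.4 and 907.7 (-0.33 ± 0.041, adjusted p = 0.00268). Mcm6, a subunit of the helicase, gave 33.75, 28.99 and 31.11 against 23.93, 26.16 and 24.72 (-0.33 ± 0.065, adjusted p = 0.0187). In both, every Dnajb4-/- array was below every wild-type array, and Mcm6 was the single helicase subunit called among the 6 measured.

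The other 10 S-phase genes had log2 differences from -0.11 to 0.14 and adjusted p-values of 0.164 or more. Mcm7 gave 160.5, 152.1 and 166.5 against 157.8, 159.8 and 164.0 (0.01, adjusted p = 0.93). Mcm4 gave 67.57, 59.76 and 62.97 against 61.11, 76.97 and 71.71 (0.14, adjusted p = 0.373). For both helicase subunits the groups overlapped. Rrm2, the regulated subunit of ribonucleotide reductase, gave 91.63, 93.52 and 94.22 against 87.81, 89.65 and 88.66 (-0.07, adjusted p = 0.248), without overlap but with a small difference.

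**Figure D2:**
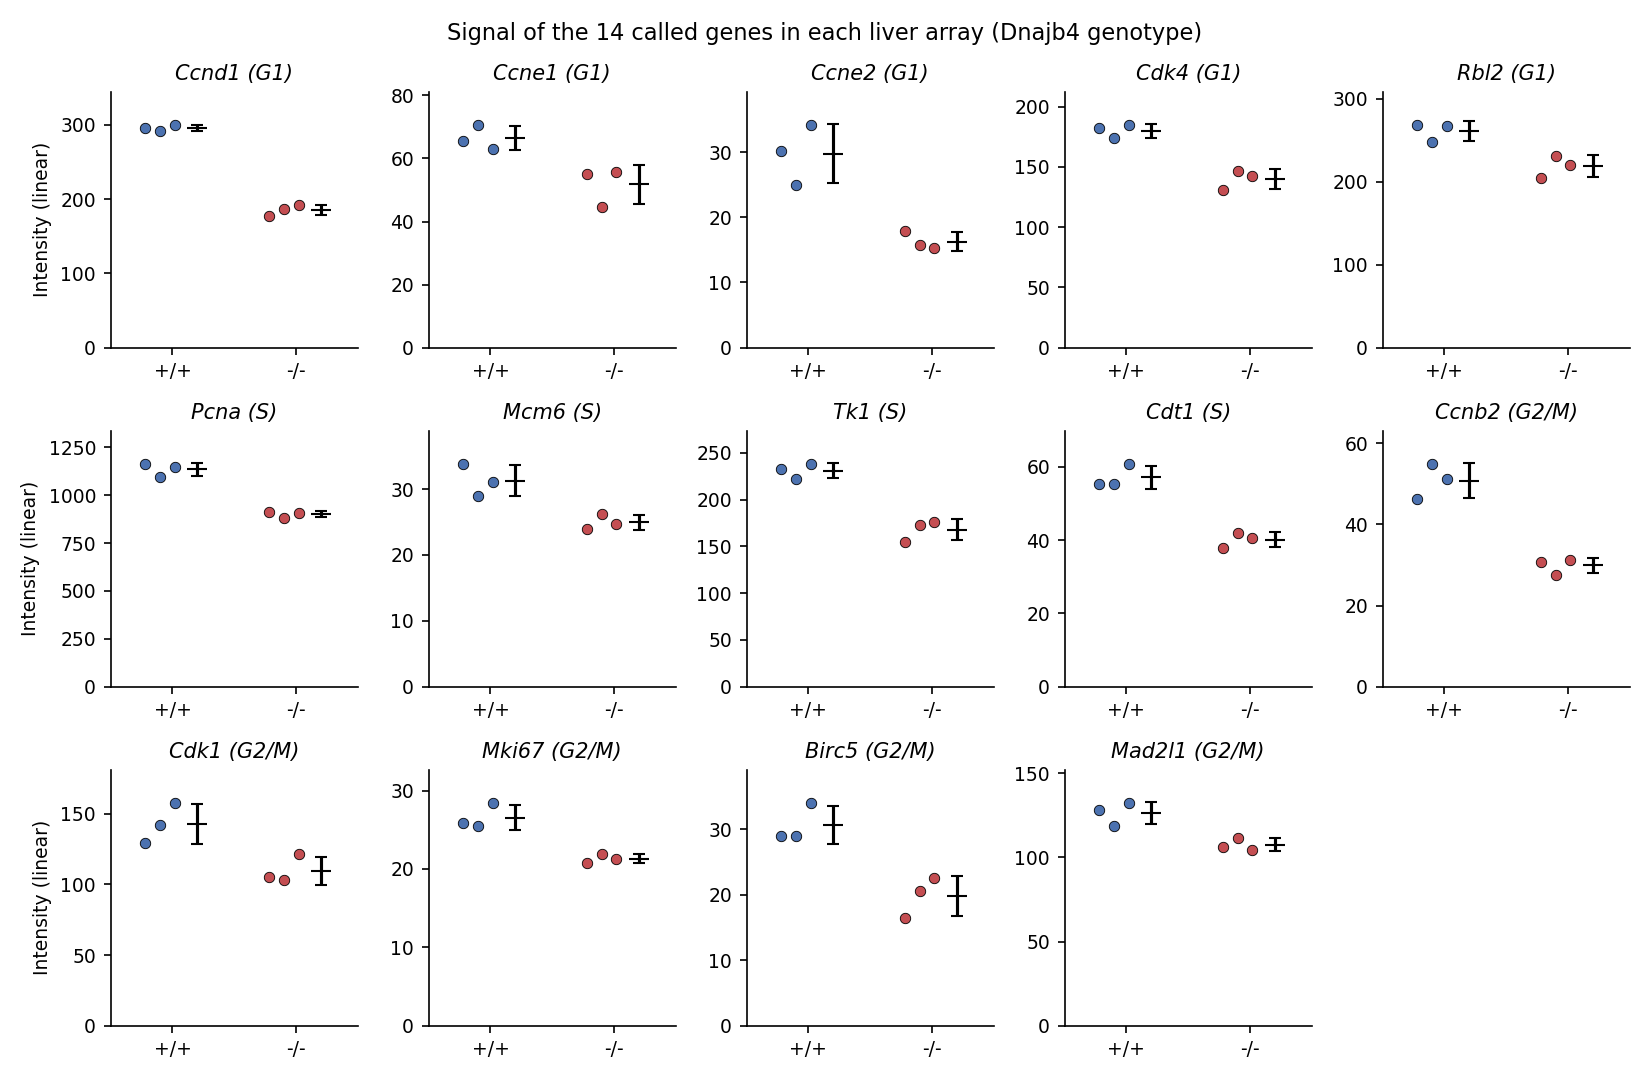
Normalized intensity on a linear scale from 0 (y axis) of the 14 called genes in each of the 3 Dnajb4+/+ (blue) and 3 Dnajb4-/- (red) liver arrays, with black bars for the mean ± SD. In every panel the red points lie below the blue ones, from 177.7 to 192.0 against 291.3 to 299.2 for Ccnd1 and, more narrowly, from 205.2 to 231.7 against 247.7 to 268.1 for Rbl2.

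Among the 21 G2/M genes, the mitotic cyclin Ccnb2, its kinase Cdk1, the proliferation marker Mki67, Birc5 and Mad2l1 were lower in Dnajb4-/- liver. RefSeq promoter windows of these 5 genes (GRCm38.p6, 250 bases before to 50 after the start, written 5′ to 3′ on the strand of the gene) are shown because G2/M genes are usually recognised by elements in this region, which 3 of the 5 held in several copies. Capitals mark matches on either strand to the CHR motifs TTTGAA and TTTAAA, to the E2F motifs TTTCCCGC or TTTGGCGC or TTTCGCGC or TTTGCCGC, and to the NF-Y box CCAAT, which reads ATTGG where it lies on the other strand. No match overlapped another in these windows. The windows are chr9:70421505-70421804 (minus strand) for Ccnb2, chr10:69352863-69353162 (minus) for Cdk1, chr7:135716330-135716629 (minus) for Mki67, chr11:117848987-117849286 (plus) for Birc5 and chr6:66534971-66535270 (plus) for Mad2l1.
Ccnb2: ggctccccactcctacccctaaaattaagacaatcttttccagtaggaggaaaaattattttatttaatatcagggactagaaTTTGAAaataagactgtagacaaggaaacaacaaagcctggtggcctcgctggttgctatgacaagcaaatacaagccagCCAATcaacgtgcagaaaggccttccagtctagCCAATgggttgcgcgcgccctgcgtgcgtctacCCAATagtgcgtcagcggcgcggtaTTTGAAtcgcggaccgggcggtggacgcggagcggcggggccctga
Cdk1: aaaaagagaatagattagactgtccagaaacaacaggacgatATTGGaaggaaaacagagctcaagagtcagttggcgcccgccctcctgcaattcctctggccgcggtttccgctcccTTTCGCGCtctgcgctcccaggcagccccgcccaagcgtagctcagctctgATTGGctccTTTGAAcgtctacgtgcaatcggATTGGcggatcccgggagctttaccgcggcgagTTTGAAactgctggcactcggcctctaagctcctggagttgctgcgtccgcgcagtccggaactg
Mki67: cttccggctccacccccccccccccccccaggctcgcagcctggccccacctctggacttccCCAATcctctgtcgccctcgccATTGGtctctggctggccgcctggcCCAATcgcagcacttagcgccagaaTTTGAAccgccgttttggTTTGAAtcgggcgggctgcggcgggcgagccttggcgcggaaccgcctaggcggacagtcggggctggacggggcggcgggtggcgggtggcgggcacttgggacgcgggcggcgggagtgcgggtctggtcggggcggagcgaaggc
Birc5: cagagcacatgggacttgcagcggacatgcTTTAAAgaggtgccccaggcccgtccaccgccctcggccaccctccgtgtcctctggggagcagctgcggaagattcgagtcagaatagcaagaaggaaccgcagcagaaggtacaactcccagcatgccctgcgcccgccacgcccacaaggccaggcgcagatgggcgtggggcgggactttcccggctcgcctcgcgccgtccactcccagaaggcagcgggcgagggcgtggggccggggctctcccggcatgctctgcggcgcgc
Mad2l1: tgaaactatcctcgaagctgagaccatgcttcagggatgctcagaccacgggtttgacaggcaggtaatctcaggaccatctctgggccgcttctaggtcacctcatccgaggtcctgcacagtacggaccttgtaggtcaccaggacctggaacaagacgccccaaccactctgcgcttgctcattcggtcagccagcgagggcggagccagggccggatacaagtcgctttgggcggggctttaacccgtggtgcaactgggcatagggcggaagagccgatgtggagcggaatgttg

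Ccnb2, Cdk1 and Mki67 each held 2 TTTGAA and 3 CCAAT matches. The CCAAT boxes of Ccnb2 began at -87, -54 and -21 from the start, spaced by 33 bases, with TTTGAA at -167 and at 4. In Cdk1, TTTGAA began at -71 and -15, CCAAT at -208, -80 and -48 and an E2F motif at -131. Mki67 had its CCAAT boxes at -188, -166 and -141, upstream of TTTGAA at -116 and -98. Birc5 held a single TTTAAA at -220 and Mad2l1 held none of these letters in its window, which says nothing about the factors.

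Over all genes listed here with a promoter window, 40 matched, with 44 windows. Of the 15 G2/M windows, 10 held TTTGAA (66.7%) and 12 held CCAAT (80.0%), against 17.9% and 37.4% of all 32851 mouse windows of the same length. Both together were found in 10 of the 15 (66.7%) and in 6.95% of all windows. An E2F motif was found in 1 G2/M window, in 6 of 16 G1 windows and in 6 of 13 S-phase windows, against 2.26% of all windows. Among the genes with windows, TTTGAA was found in 33.3% of the 12 windows of called genes and in 34.4% of the 32 of uncalled genes, and CCAAT in 41.7% and 75.0%. These shares are descriptions of the sequences and were not tested.

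**Figure D3:**
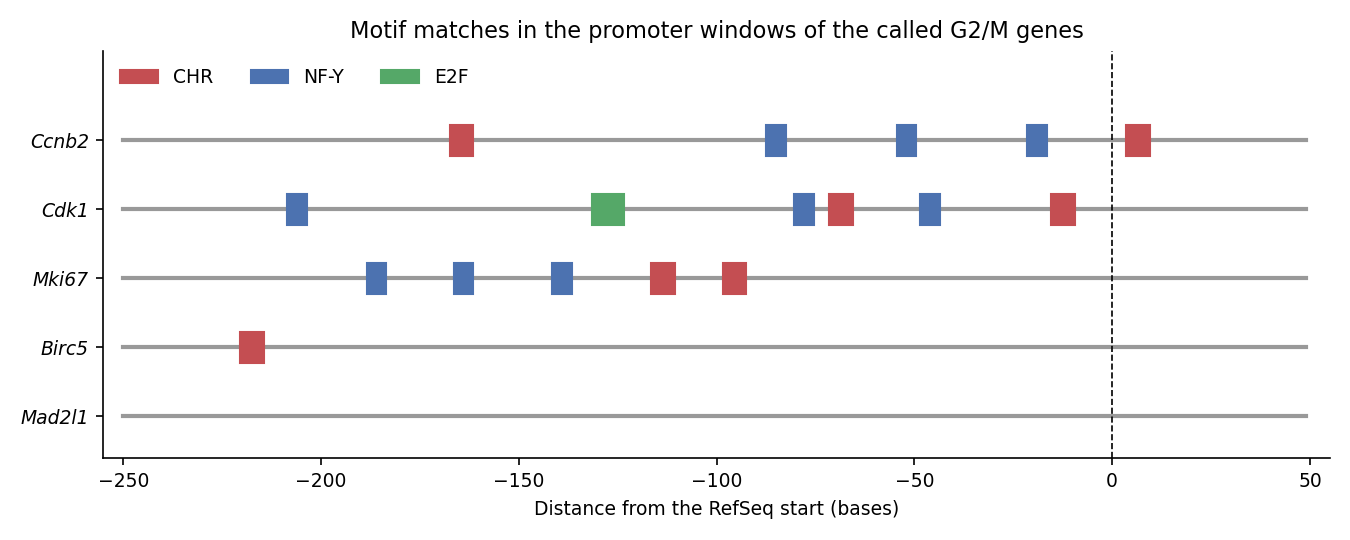
Positions of CHR (red), NF-Y (blue) and E2F (green) motif matches along the promoter windows of the 5 called G2/M genes (rows), against the distance from the RefSeq start in bases (x axis, dashed line at the start). Ccnb2, Cdk1 and Mki67 each show 2 CHR and 3 NF-Y matches, Birc5 shows 1 CHR match and Mad2l1 none.

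Ccnb2, the B-type cyclin of mitotic entry, gave 46.21, 54.81 and 51.17 in Dnajb4+/+ and 30.78, 27.62 and 31.23 in Dnajb4-/- liver, or 59.0% of the wild-type level (-0.76 ± 0.077, adjusted p = 0.00114). Cdk1, the kinase it activates, gave 129.3, 142.1 and 157.4 against 105.2, 103.1 and 121.2 (-0.38 ± 0.090, adjusted p = 0.0336). The groups were well apart for Ccnb2 and close for Cdk1. Birc5, which encodes survivin of the chromosomal passenger complex, gave 29.01, 28.99 and 33.96 against 16.47, 20.57 and 22.51 (-0.64 ± 0.12, adjusted p = 0.0155). Mki67, the gene of the Ki-67 antigen, gave 25.84, 25.47 and 28.38 against 20.76, 21.86 and 21.29 (-0.32 ± 0.053, adjusted p = 0.00921). In both the groups did not overlap, and Birc5 varied more among the Dnajb4-/- arrays than Mki67 did. Mad2l1, a protein of the spindle checkpoint, gave 128.2, 118.9 and 132.1 against 106.2, 111.7 and 104.5 (-0.23 ± 0.053, adjusted p = 0.0291), the smallest difference among the called genes.

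The other 16 G2/M genes were not called, among them the mitotic kinases Plk1, Aurka, Aurkb, Bub1 and Ttk. Nusap1, a microtubule-binding protein of the spindle, gave 16.39, 18.14 and 16.25 against 13.09, 14.02 and 15.49, with separate groups (-0.26, adjusted p = 0.0643). Ccna2, the cyclin of S phase and G2, gave 47.21, 51.88 and 46.37 against 44.96, 45.10 and 40.76, also without overlap (-0.15, adjusted p = 0.158). Plk1, the polo kinase, gave 58.14, 59.48 and 51.06 against 58.79, 54.36 and 54.21, with overlapping groups (-0.01, adjusted p = 0.946). Cdc20, the activator of the anaphase-promoting complex, gave 63.99, 64.84 and 62.52 against 66.79, 68.34 and 65.05, with the Dnajb4-/- arrays slightly above (0.06, adjusted p = 0.325). Many mitotic genes gave little signal in these livers, since 16 of the 21 had a mean signal under 43.5, the median of all genes. Of these, 8 were under 16.6, the lower quartile, among them the kinases Aurka (15.16), Aurkb (8.606), Bub1 (7.592) and Ttk (13.62). The lowest value in the table was 3.90.

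The single probe sets of a gene went the same way in some genes and split in others. The 53 genes had 125 probe sets, of which 24 (19.2%) were called lower and 4 (3.20%) higher, against 8.34% and 5.20% of all probe sets tested. All 16 probe sets of the 6 called genes with more than 1 were lower by their means and 11 of them were called. As these genes were called on the average of the same probe sets, this is no independent check. The other 8 called genes rested on 1 probe set each. Each of the 3 probe sets of Ccnd1 was called lower (-0.58, -0.74 and -0.70), as was each of the 3 of Cdk4 (-0.39, -0.32 and -0.39). For Cdt1, 2 of 3 were called, for Mcm6 1 of 3, and for Ccne1 and Rbl2 1 of 2. The called Ccne1 probe set gave 60.00, 68.61 and 57.55 against 44.11, 32.17 and 48.21, whereas the other gave 71.71, 72.47 and 69.13 against 68.83, 61.79 and 64.32 (-0.13, adjusted p = 0.171).

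Among uncalled genes, 4 had at least 1 probe set called lower, namely Ccnd3, Cdk6, E2f1 and Top2a, and 4 had 1 called higher, namely Cdc20, Cdc25a, E2f8 and Top2a. These were picked out after their values were seen, and the share of all genes with such a probe set was not computed. E2f1, an activating E2F, had a probe set at 62.67, 60.04 and 58.89 against 47.95, 47.58 and 47.12 (-0.35, adjusted p = 0.00414), and its other probe sets were not called. E2f8, an atypical E2F that represses E2F targets, had a probe set at 192.4, 180.4 and 178.3 against 215.5, 240.5 and 232.5 (0.32, adjusted p = 0.0167). Top2a, the topoisomerase that untangles DNA in mitosis, was the gene whose probe sets were called in opposite directions. One of them gave 37.57, 30.01 and 37.93 against 22.13, 20.25 and 24.51 (-0.65, adjusted p = 0.0122). Another gave 22.04, 18.98 and 23.20 against 27.48, 28.08 and 28.39 (0.39, adjusted p = 0.0209). In 21 of the 39 genes with several probe sets the means of the probe sets differed in sign, and the part of each gene that a probe set reads was not analysed here.

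**Figure D4:**
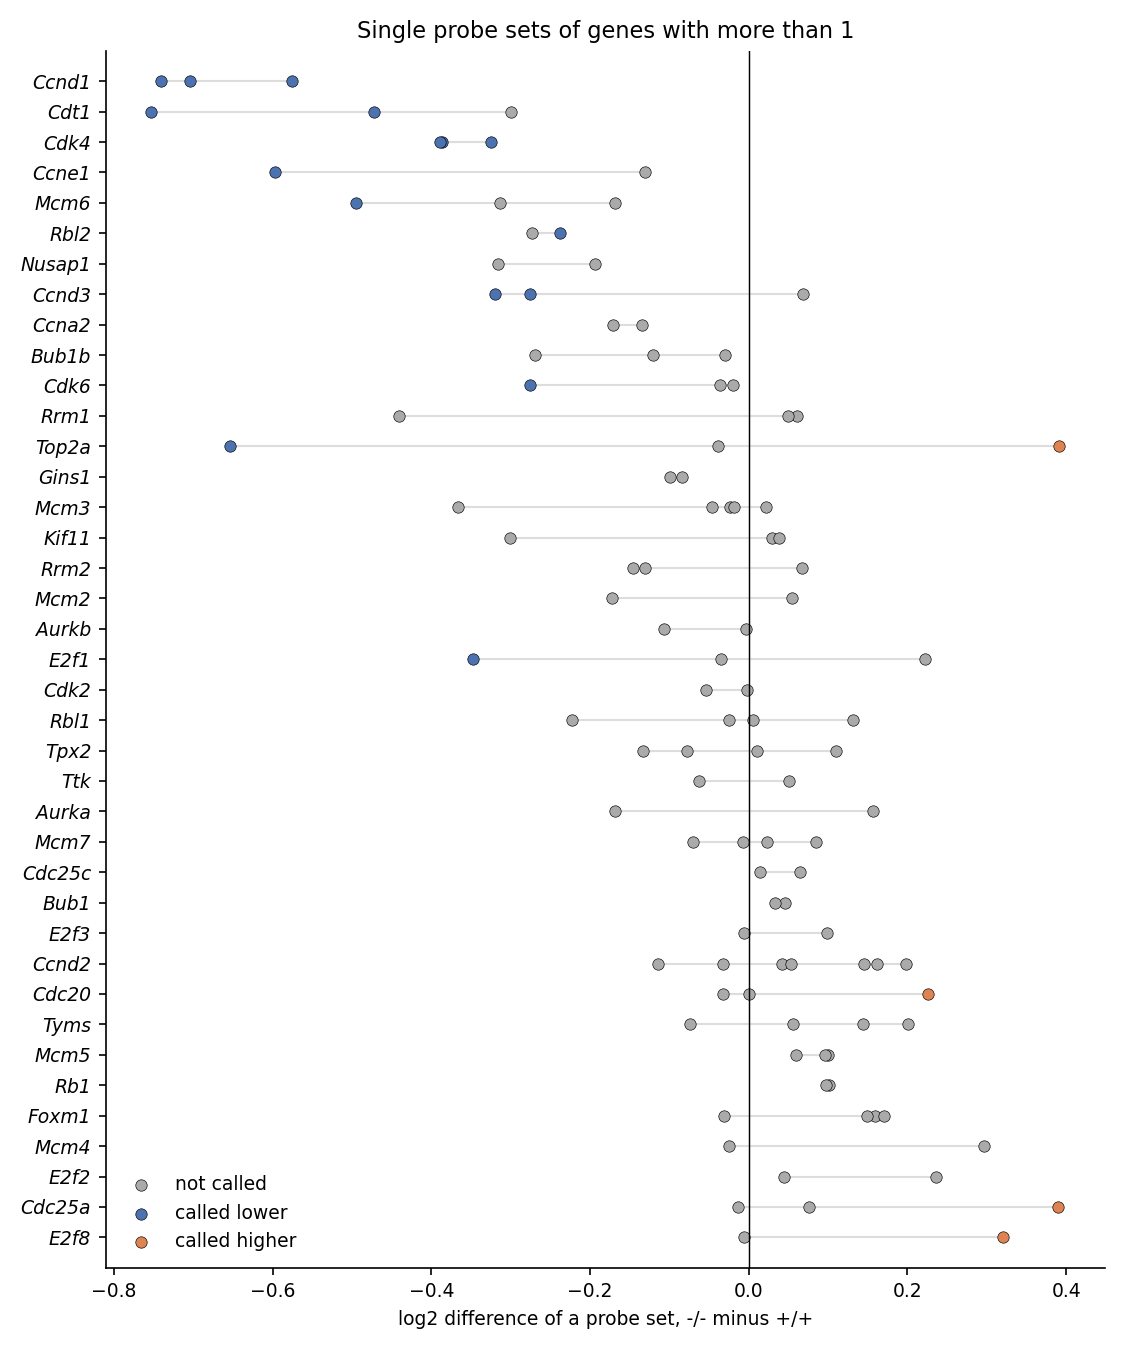
Log2 difference, Dnajb4-/- minus Dnajb4+/+ (x axis), of each probe set (points) of the 39 genes with more than 1 (y axis, ordered by their mean), called lower in blue, called higher in orange and not called in grey. The 3 probe sets of Ccnd1 and of Cdk4 lie together left of 0, while those of Top2a span from -0.65 to 0.39.

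Of 135 other cell cycle genes measured (137 listed), 17 were lower, 5 higher and 113 not called, with a median log2 difference of -0.04. These are 12.6% lower and 3.70% higher, near the 9.57% and 5.09% of all genes. Origin licensing and the replication fork held 5 of the lower genes, of 33 measured. Gmnn, the geminin that restrains CDT1, gave 356.8, 349.1 and 381.0 against 200.8, 225.6 and 207.3 (-0.78, adjusted p = 3.29e-04). Next came Ung, a uracil glycosylase (-0.62), Rpa2, which binds single-stranded DNA (-0.43), and Lig1, the ligase of Okazaki fragments (-0.24). In the centromere, kinetochore and spindle list 5 of 35 were lower, led by Ckap2 (-0.32) and Spc25 (-0.31), followed by Pbk (-0.27) and Kif22 (-0.21). The anaphase-promoting complex and its substrates held Ube2c, its ubiquitin-conjugating enzyme, as lower (-0.44) and Pttg1, the securin, as higher (0.28) of 17. Lin37 of the MuvB core was lower (-0.27), 1 of 10 in its list, and Rad21 of cohesin was higher (0.20), 1 of 13.

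Wee1, the kinase that inhibits CDK1 before mitosis, gave 112.8, 89.58 and 105.2 in Dnajb4+/+ and 36.22, 39.40 and 39.83 in Dnajb4-/- liver (-1.41 ± 0.088, adjusted p = 1.46e-04). Its groups were far apart, and it was 1 of 3 lower and 2 higher genes among the 19 other cyclins and CDKs and their kinases. The others were Ccng2 (0.53), Ccnf (0.37), Ccnl1 (-0.33) and Ccnt1 (-0.18). Of the 8 CDK inhibitors, 1 was higher and 2 were lower. Cdkn1a, which encodes p21, gave 131.2, 136.4 and 128.6 against 402.5, 434.3 and 451.5, or 3.25-fold higher (1.70 ± 0.054, adjusted p = 6.21e-06). Cdkn2c, which inhibits CDK4 and CDK6, gave 302.5, 292.3 and 316.5 against 225.3, 222.4 and 210.8 (-0.47, adjusted p = 0.00119). Cdkn1b, which encodes p27, gave 75.45, 68.17 and 71.99 against 56.55, 55.02 and 59.10 (-0.34, adjusted p = 0.00676). None of these groups overlapped, and the inhibitors thus did not move in a single direction.

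Markers of some other cell types were mostly lower in Dnajb4-/- liver, while those of others were mostly not called. Of 11 Kupffer cell and macrophage markers 10 were lower in Dnajb4-/-, with summed signals of 6800 to 7176 in Dnajb4+/+ and 5192 to 5470 in Dnajb4-/- liver. Endothelial markers were lower in 4 of 8 (sums 1490 to 1574 against 1289 to 1373). Lymphocyte markers were lower in 1 of 10 (sums 233 to 239 against 229 to 243). Erythroid markers were lower in 1 of 7, and those of stellate cells and fibroblasts in 1 of 8. Of 7 neutrophil markers 2 were lower and 1 higher, and of 5 cholangiocyte markers 0 were lower and 1 higher. Skeletal muscle markers were lower in 11 of 12 (830 to 892 against 410 to 425) and hepatocyte markers in 2 of 8. No marker was at 0, as the processing leaves no value at 0. The part of these cells, of the Xist and female-high gene differences, of the clock genes and of RNA integrity in the lower cell cycle genes was not tested.

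The calls held to differing degrees when the processing was varied. Of the 14 genes, 8 were called in every one of the settings in which they had a value, namely Ccnd1, Ccne2, Cdk4, Pcna, Tk1, Cdt1, Ccnb2 and Mki67. The log2 differences then lay between -0.62 and -0.74 for Ccnd1 and between -0.54 and -0.83 for Ccnb2. Ccne2, Pcna, Tk1, Ccnb2 and Mki67 have 1 probe set each. For these genes the choice of probe set and linear averaging cannot change the difference, so those settings were no check. Birc5 lost its call in 2 of 14 settings, which were the methods' t-test and the fit without Dnajb4+/+ replicate 3. Cdk1 lost it in 5 of 16, Rbl2 and Mcm6 in 6 of 15, Mad2l1 in 6 of 16 and Ccne1 in 11 of 16. The direction of all 14 was kept in each setting in which they had a value. Most settings could not have reversed it. The groups did not overlap for any of the 14, so leaving out 1 array could not change the sign. The methods' t-test, trend and robust variance, the replicate block and the filter on dim genes reuse the same difference.

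**Figure D5:**
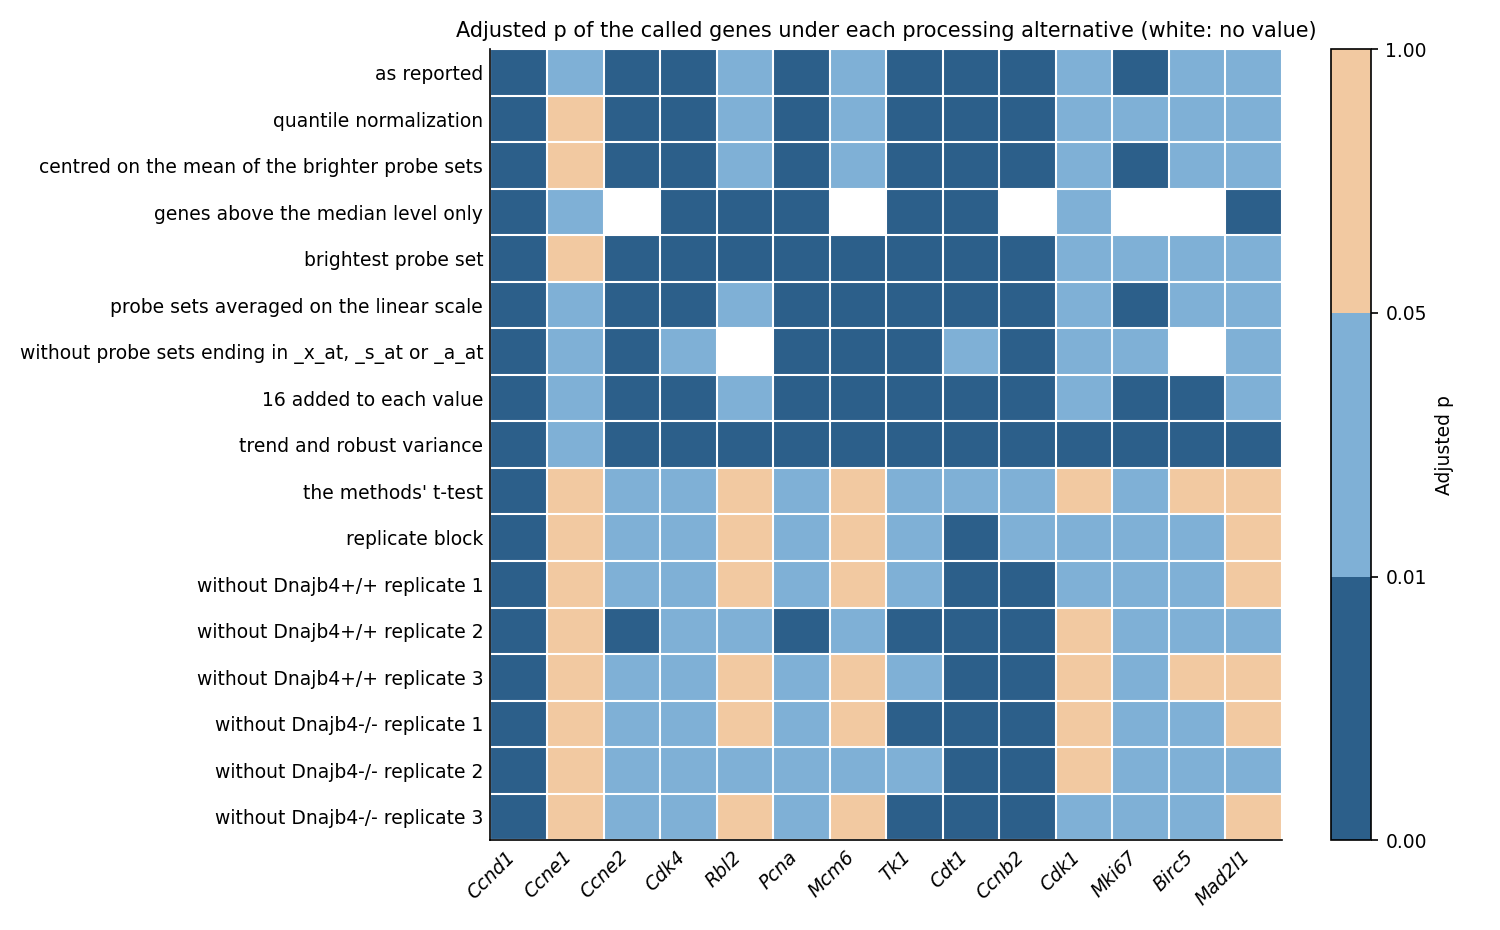
Adjusted p (colour, in 3 ranges split at 0.01 and 0.05) of the 14 called genes (columns) as reported and under each of the 16 alternatives (rows), where white marks a gene that the setting did not test. The columns of Ccnd1, Ccne2, Cdk4, Pcna, Tk1, Cdt1, Ccnb2 and Mki67 hold no value above 0.05, whereas Ccne1 is above it in 11 of 16 alternatives.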

How the data were processed

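Liver RNA of 3 Dnajb4+/+ and 3 Dnajb4-/- mice was compared, with groups and replicate numbers taken from the labels. According to the study's methods, the authors used GeneSpring for background correction and summary by GCRMA, followed by global median centering. Per probe set, the deposited table gives 1 intensity on a linear scale. Raw signals and detection calls were not used here, and precision is limited by the number of arrays. Of 45101 probe sets, 34958 had a single gene symbol, 932 several and 9211 none, and 64 controls were left out. Log2 values of 34945 probe sets were averaged per gene, which gave 18193 genes, of which 53 of 54 listed genes with 125 probe sets. Identifiers of 99.4% of the probe sets were found in RefSeq (GRCm38.p6).

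Genotypes were compared with limma 3.58.1 (lmFit and eBayes) in R 4.3.3, two-sided, over all genes without a filter, with Benjamini-Hochberg adjustment and calls at an adjusted p under 0.05. The fit was first tested on simulated data. Named with values in each array were every called gene, per phase the 3 uncalled genes of highest signal and the uncalled gene of largest difference, up to 4 called genes of each other list, every called CDK inhibitor and Wee1. Genes and lists were chosen with earlier results of these data known. Alternatives were the normalization, centring, a filter on dim genes, the probe set rule, an offset of 16, limma with trend and robust variance, the methods' t-test, a replicate block, leaving out each array and, chosen after seeing the data, single probe sets. Promoter motifs were counted by string matching on both strands in python 3.11.15. Figures were drawn with matplotlib 3.10.9.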

Additional observations from a re-analysis of the deposited data

How the results depend on the processing

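The count of 14 lower genes ran from 8 to 18 across the alternatives. Shares of all genes called lower in the same setting follow in brackets. The count was 14 by quantile normalization (8.87%) and 13 with centring on the brighter probe sets (8.03%). Using the brightest probe set per gene gave 18 (11.3%), and averaging on the linear scale gave 15 (12.0%). It was 14 with trend and robust variance (12.4%) and 15 with 16 added (12.7%). Among genes above the median level 11 of 22 were lower (23.4%). Without probe sets whose names end in _x_at, _s_at or _a_at, 13 of 45 were lower (7.76%). The methods' t-test gave 8 (7.38%), and leaving out 1 array gave 8 to 12 (5.69% to 7.43%), with 0 higher. Higher calls were 0 as reported, and brackets now give the shares of all genes called higher in the same setting. Cdc25a was the 1 higher call by quantile normalization (6.89%), by centring on the brighter probe sets (7.59%) and among genes above the median level (12.3%). E2f8 was the 1 with linear averaging (7.05%) and with 16 added (7.13%). Without probe sets whose names end in _x_at, _s_at or _a_at, it was Top2a (3.87%). The brightest probe set gave 2, E2f8 and Cdc20 (6.53%). Counting genes with at least 1 single probe set called, an alternative chosen after seeing the data, gave 4 higher and 18 lower. No share of all genes was computed for that count, so it has no background beside it. Centring on the brighter probe sets moved all genes to 8.03% lower and 7.59% higher, from 9.57% and 5.09%. Top2a changed direction without the _x_at, _s_at and _a_at probe sets (0.18, adjusted p = 0.0395), since the probe set that was lower is then left out.

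With the replicate number as a block, 10 genes were lower and 0 higher, against 5.63% and 2.78% of all genes. Whether the numbers pair the arrays is not known here. Deviations from the group means correlated at -0.0212, -0.141 and 0.00907 for arrays with the same number. For arrays with different numbers they correlated at -0.102 to 0.121. With 3 arrays per group these values cannot decide it. With 3 arrays per genotype, standard errors of the 53 genes ran from 0.036 to 0.12 (log2). They were 0.039 to 0.121 for G2/M genes and 0.037 to 0.117 for G1 genes. Many mitotic genes gave little signal, and whether this limited the calls was not tested.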
